A study of Mus musculus with 6 samples.

Results

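Expression of pluripotency factors was examined in neuromesodermal progenitors (NMPs) made from mouse embryonic stem cells (ESCs). The rows of 10 genes, Pou5f1, Nanog, Klf2, Klf4, Esrrb, Zfp42, Utf1, Dppa4, Lin28a and Dnmt3b, were taken by gene symbol from the table of each sample, and the values of a gene's transcripts were summed. These are 10 of 20631 genes and 24 of 30352 RefSeq transcripts. RNA-seq had been performed on 6 samples, 2 dishes for each of 3 conditions, namely the DMSO vehicle, 25 nM retinoic acid (RA) and 1 µM RA, each given for 2 h. All 6 dishes share the same history of ESC culture on mouse embryonic fibroblast feeders, 2 days in bFGF, 1 day in bFGF with the WNT agonist CHIR99021, and removal of both factors for the final 2 h in N2B27 medium whose supplement was free of retinoids. The sample labels give the strain as 129 R1, whereas the methods describe ESCs from C57BL/6 mice. The methods call the duplicate dishes technical replicates, so the spread and the p-values below are those between dishes. ESCs before differentiation were not analysed here, so the levels below cannot be set against a starting level.

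Pluripotency rests on a network of transcription factors that hold each other's genes active and keep a cell from choosing a lineage. Pou5f1 (OCT4), with SOX2 and NANOG, forms the core of the network, and KLF2, KLF4, ESRRB and the product of Zfp42 (REX1) mark its naive form, the state of the preimplantation epiblast. Naive factors decline before Pou5f1 when cells pass to the primed state of the postimplantation epiblast, in which Dnmt3b is abundant. RA is widely used to drive ESCs out of pluripotency, and retinoid and orphan nuclear receptors are known to act at the Pou5f1 promoter.

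Total estimated counts lay between 31753556 and 42029348 per sample, and the 10 genes together took between 0.251% and 0.256% of them in every sample. This share rested mainly on Pou5f1, Lin28a and Dnmt3b, which held 30042, 42621 and 29529 of the 106348 counts in DMSO replicate 1. The NMP label was checked with T (Brachyury), which was at 375 ± 6.98 RPKM (reads per kilobase of transcript and library size; SD, n = 2) in DMSO, and with Sox2 at 5.20 ± 0.00892 RPKM. Nkx1-2, a gene of the caudal progenitor zone, was at 39.1 ± 0.250 RPKM. In a list of 11 NMP markers 10 were above 1 RPKM in DMSO, and the exception was Cdx4 at 0.072 ± 0.018 RPKM. The RA treatment was seen in Cyp26a1, which encodes an RA-degrading enzyme and was at 52.4 ± 0.239 RPKM in DMSO, 178 ± 0.00212 RPKM at 25 nM and 278 ± 8.17 RPKM at 1 µM. All 8 genes of a list of known RA-responsive genes were called higher at both doses.

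In DMSO the 10 genes covered a wide span of levels, from Pou5f1 at 445 RPKM to Esrrb at 0.411 RPKM. The values fell into 3 tiers. Pou5f1, Lin28a and Dnmt3b were at 127 RPKM or more in every sample, Nanog, Utf1, Dppa4 and Zfp42 were between 4.55 and 20.8 RPKM, and Klf2, Klf4 and Esrrb were at or below 1.03 RPKM. Mean levels were above 1 RPKM for 7 of the 10 genes, against 11107 of all 20631 genes (53.8%). Klf2, Klf4 and Esrrb were not above it, so the label of remaining factors is doubtful for these 3. For the other 7 a level above 1 RPKM shows transcripts in the dishes as a whole. It does not show which cells held them or that they remained from the ESCs. For neighbours in this order the ranges over the 6 samples did not overlap, except between Klf2 and Klf4 and between Klf4 and Esrrb.

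**Figure D1:**
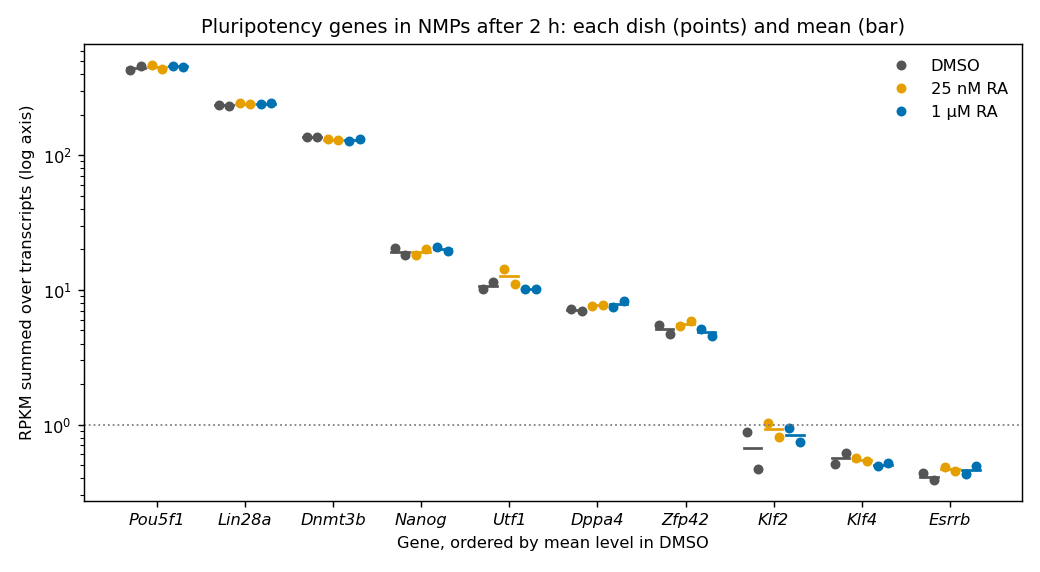
RPKM of the 10 pluripotency genes (log axis) in each of the 6 dishes, ordered by mean level in DMSO, with a short bar at the mean of each condition and a dotted line at 1 RPKM. Pou5f1, Lin28a and Dnmt3b lie at 127 RPKM or more, Klf2, Klf4 and Esrrb lie near or below the line, and the 3 conditions lie close together within each gene.

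Pou5f1 encodes the POU-domain factor OCT4 and lies at chr17:35506032-35510777 (mm10) on the plus strand. Its values were 432 and 458 RPKM in DMSO, 470 and 434 RPKM at 25 nM, and 463 and 452 RPKM at 1 µM. The 3 conditions overlapped, and the mean level in DMSO (445 ± 18.1 RPKM) ranked 126 among all genes. Relative to DMSO the fold was 1.01 at 25 nM (95% interval 0.942 to 1.09) and 1.02 at 1 µM (95% interval 0.950 to 1.10). Pou5f1 has near-identical pseudogene copies and is overlapped in its 3′ part by the antisense gene Gm19553 (chr17:35509077-35510551), and whether counting used strand is not given in the sources used here, so that reads of these could have been counted with it.

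The sequence before the Pou5f1 start is shown because nuclear receptors for RA and their orphan relatives are known to act there. It is the 250 bases before the annotated start, chr17:35505782-35506031 on the plus strand (RefSeq, GRCm38, the build of mm10), 5′ to 3′, with matches to the receptor hexamer in capitals:
Pou5f1 upstream: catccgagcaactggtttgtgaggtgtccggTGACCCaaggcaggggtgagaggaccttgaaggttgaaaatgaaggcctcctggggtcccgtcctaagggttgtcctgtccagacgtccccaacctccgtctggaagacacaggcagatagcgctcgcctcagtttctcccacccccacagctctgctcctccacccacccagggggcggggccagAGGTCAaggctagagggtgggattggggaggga
The hexamer searched on both strands was AGGTCA, with G also accepted for the A and T for the later G of its 2 neighbouring G letters. The Pou5f1 window held AGGTCA on the plus strand with its 5′-most base at position -33 from the start and GGGTCA on the minus strand at position -219 (seen here as its reverse complement). Of the 12 windows of 300 bases for 9 of the genes (250 bases before to 50 after a start, none for Dppa4), 9 held a hexamer, against 43.7% of all 32851 windows. By gene it was 7 of 9, since Pou5f1, Esrrb and Nanog entered with 2 windows each. The Nanog windows overlap and share a hexamer. No window of the 9 genes held 2 of these exact hexamers in direct repeat with 1, 2 or 5 bases between them, which 0.222%, 0.268% and 0.097% of all windows did. Repeats of inexact hexamers and other spacings were not searched, so the search cannot show that a window lacks a receptor site. The octamer ATGCAAAT, the letters that POU factors recognise, was found for Zfp42 among the 9 genes and in 1.74% of all windows.

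Nanog, a homeobox factor (chr6:122707489-122714633, plus strand), was at 20.4 and 18.1 RPKM in DMSO, 18.3 and 20.0 RPKM at 25 nM, and 20.8 and 19.6 RPKM at 1 µM. The conditions overlapped here too. The fold was 0.996 at 25 nM (95% interval 0.910 to 1.09) and 1.05 at 1 µM (95% interval 0.956 to 1.14). Nanog ranked 3334 among all genes, and its reads could be shared with pseudogene copies of near-identical sequence.

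The genes for regulators of RNA and chromatin in the group included the second and the third highest. Lin28a (chr4:134003330-134018816, minus strand), whose product binds RNA and blocks maturation of let-7 microRNAs, was at 238 and 233 RPKM in DMSO, 243 and 240 RPKM at 25 nM, and 242 and 243 RPKM at 1 µM. All 4 RA-treated dishes were above both DMSO dishes, but the folds of 1.03 (95% interval 0.963 to 1.09) at 25 nM and 1.02 (95% interval 0.962 to 1.09) at 1 µM did not pass the test (adjusted p = 0.847 and 0.686). Dnmt3b (chr2:153649449-153687730, plus strand), a de novo DNA methyltransferase, was at 137 and 137 RPKM in DMSO, 131 and 130 RPKM at 25 nM, and 127 and 132 RPKM at 1 µM. All 4 RA-treated dishes were below both DMSO dishes. The folds of 0.948 (95% interval 0.890 to 1.01) and 0.941 (95% interval 0.884 to 1.00) did not pass the test (adjusted p = 0.479 and 0.214). The 5′ end of Dnmt3b is overlapped by the antisense gene Dnmt3bos (chr2:153648690-153650286) and that of Lin28a by Gm13061 (chr4:134018147-134019869).

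Utf1 (chr7:139943856-139945112, plus strand), which encodes a chromatin-bound factor of ESCs, was at 10.1 and 11.5 RPKM in DMSO, 14.2 and 11.2 RPKM at 25 nM, and 10.2 and 10.2 RPKM at 1 µM. The dish at 14.2 RPKM stood above the other 5. Dppa4 (chr16:48283735-48294292, plus strand), which encodes a chromatin protein that partners with DPPA2, was at 7.18 and 6.95 RPKM in DMSO, 7.66 and 7.75 RPKM at 25 nM, and 7.46 and 8.26 RPKM at 1 µM. Each RA-treated dish was above both DMSO dishes, and the folds were 1.08 (95% interval 0.971 to 1.21) and 1.10 (95% interval 0.991 to 1.23), short of the threshold with adjusted p = 0.580 and 0.238.

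Of the naive factors among the 10 genes (Klf2, Klf4, Esrrb and Zfp42), only Zfp42 had a mean above 1 RPKM in DMSO. Zfp42 (chr8:43295067-43307009, minus strand), a zinc finger gene used as a marker of naive ESCs, was at 5.48 and 4.74 RPKM in DMSO, 5.41 and 5.83 RPKM at 25 nM, and 5.13 and 4.55 RPKM at 1 µM. Both dishes at 25 nM were above both at 1 µM, and the direct fold of 1 µM over 25 nM was 0.856 (95% interval 0.751 to 0.977, adjusted p = 0.268).

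The Krüppel-like factor genes Klf2 (chr8:72319062-72321654, plus strand) and Klf4 (chr4:55527137-55532475, minus strand) and the orphan nuclear receptor gene Esrrb (chr12:86361117-86521628, plus strand) rested on between 36 and 94 estimated counts in each sample. Klf2 was at 0.877 and 0.469 RPKM in DMSO, 1.03 and 0.808 RPKM at 25 nM, and 0.939 and 0.739 RPKM at 1 µM. Its lowest dish, in DMSO, held 36 counts (exact 95% Poisson interval 25.2 to 49.8, counting error only) against 82 counts (65.2 to 102) in the other DMSO dish. The counting error of these values is therefore wide, and in proportion to their mean the DMSO duplicates of Klf2 differed by more than those of the other 9 genes. Klf4 was at 0.510 and 0.614 RPKM in DMSO, 0.564 and 0.537 RPKM at 25 nM, and 0.492 and 0.516 RPKM at 1 µM. Esrrb was at 0.434 and 0.388 RPKM in DMSO, 0.485 and 0.449 RPKM at 25 nM, and 0.428 and 0.496 RPKM at 1 µM. At 25 nM both Esrrb dishes were above both DMSO dishes, while Klf4 overlapped. The Esrrb fold of 1.13 (95% interval 0.898 to 1.43) did not pass the likelihood ratio test (adjusted p = 0.750). Both Klf4 and Esrrb overlapped between DMSO and 1 µM RA. Their intervals leave room for moderate changes: at 1 µM the fold was 0.899 for Klf4 (95% interval 0.701 to 1.15) and 1.12 for Esrrb (95% interval 0.889 to 1.41).

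At the threshold of an adjusted p of 0.1, edgeR's likelihood ratio test called 0 of the 10 genes at 25 nM, where 8.05% of all 15143 genes tested were called (4.5% higher and 3.55% lower). At 1 µM none was called either, against a background of 19.7% (8.54% higher and 11.2% lower). All 10 genes passed the filter on low counts. The quasi-likelihood test and DESeq2 also called 0 of the 10 at each dose. By the likelihood ratio test an unadjusted p under 0.05 was found for 1 gene at 25 nM (Utf1) and for 0 genes at 1 µM, against 14.9% and 26.4% of all genes tested. The quasi-likelihood test gave such a p for Utf1 at 25 nM (0.029) and Dnmt3b at 1 µM (0.032), against 2265 and 4112 of all 15143 genes. DESeq2 gave it for Dnmt3b at 25 nM (0.045) and 1 µM (0.025), against 1252 and 2610 of all genes. The median log2 fold change of the 10 genes was 0.07 at 25 nM and 0.03 at 1 µM, and those of all genes were -0.00051 and 0.0013. The median size of the change, regardless of sign, was 0.10 and 0.09 on the log2 scale, against 0.07 and 0.11 for all genes. Both doses share the DMSO dishes, so these counts are not independent of each other.

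**Figure D2:**
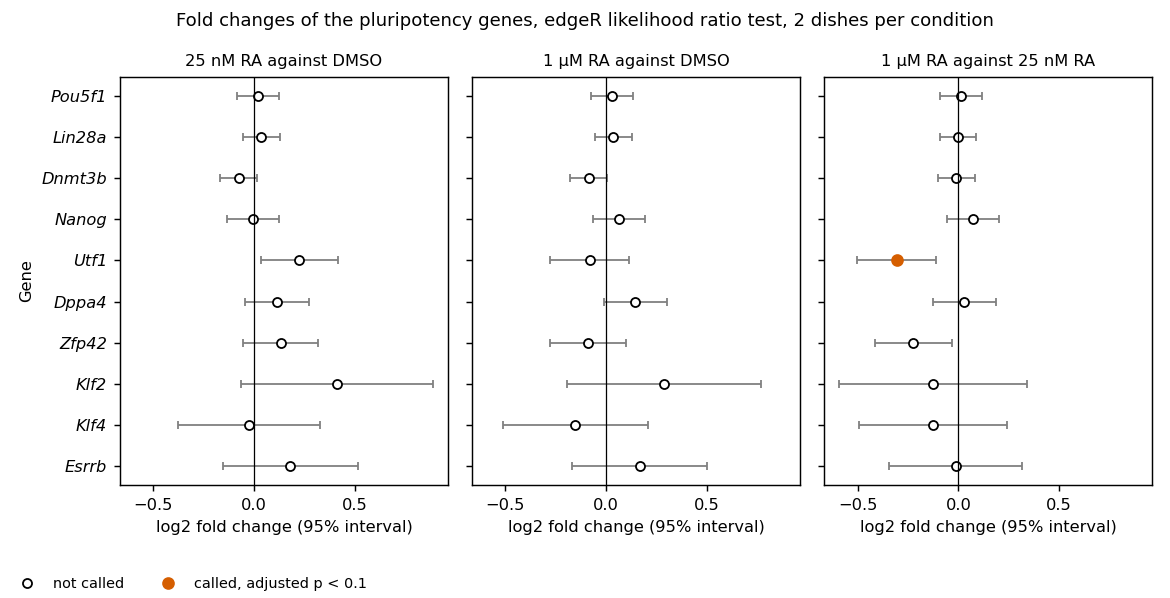
Log2 fold changes of the 10 genes with 95% intervals (horizontal axis) in the 3 comparisons, ordered by level in DMSO. The intervals of Pou5f1, Lin28a and Dnmt3b are narrow around 0, those of Klf2, Klf4 and Esrrb are wide, and the filled point, for Utf1 in the direct comparison of doses, is the only one called.

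Between the doses, Utf1 was called, 1 of 10 genes against 3.41% of all genes. Its level was lower at the higher dose, by a log2 fold change of -0.31 (SE 0.10, adjusted p = 0.0719, fold 0.808). Relative to DMSO its log2 fold change was 0.22 (SE 0.10, adjusted p = 0.204) at 25 nM and -0.08 (SE 0.10, adjusted p = 0.656) at 1 µM. The direct call was lost with the quasi-likelihood test (adjusted p = 0.151), with DESeq2 (adjusted p = 0.354), without the 25 nM RA dish at 14.2 RPKM and without either dish of 1 µM RA. Without the other 25 nM RA dish, Utf1 was called higher than DMSO at 25 nM. Klf2 likewise turned on a single dish, since without the DMSO dish of 82 counts it was called higher at both doses, with log2 fold changes of 0.95 and 0.82 in place of 0.41 (SE 0.24, adjusted p = 0.451) and 0.29 (SE 0.25, adjusted p = 0.491).

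Estimated counts of single transcripts were also tested, since 5 of the 10 genes have several. The authors' estimation divided the reads of such a gene among its transcripts, so that a transcript can change while its gene does not. At 25 nM 1 of 24 transcripts was called (background 3.69% of 22074 transcripts), at 1 µM 3 of 24 (background 8.3%), and 0 of 24 between the doses (background 1.8%). Between the doses 1 of 24 had an unadjusted p under 0.05, and the quasi-likelihood test and DESeq2 called 0 there too.

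Esrrb has 2 transcripts with separate starts, 60527 bases apart, and their upstream sequences are shown to set the starts side by side. Both are the 250 bases before a start on the plus strand, chr12:86360867-86361116 for NM_001159500 and chr12:86421394-86421643 for NM_011934 (RefSeq, GRCm38), with receptor hexamers in capitals:
Esrrb upstream start: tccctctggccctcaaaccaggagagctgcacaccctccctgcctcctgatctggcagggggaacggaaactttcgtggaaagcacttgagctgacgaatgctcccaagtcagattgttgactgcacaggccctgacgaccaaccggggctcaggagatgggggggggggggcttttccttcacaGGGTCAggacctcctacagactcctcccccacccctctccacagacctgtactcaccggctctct
Esrrb downstream start: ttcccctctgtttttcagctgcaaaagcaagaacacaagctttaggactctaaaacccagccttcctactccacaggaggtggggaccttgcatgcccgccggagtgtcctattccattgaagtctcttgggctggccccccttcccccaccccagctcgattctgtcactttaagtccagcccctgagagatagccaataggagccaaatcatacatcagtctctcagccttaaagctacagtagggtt
The window of the upstream start held GGGTCA on the plus strand at position -65, and that of the downstream start held no match to the hexamer. NM_001159500 was estimated at 6.51 and 7.02 counts in DMSO, 27.3 and 30.8 counts at 25 nM, and 40.7 and 21.9 counts at 1 µM. All 4 RA-treated dishes were above both DMSO dishes. Its log2 fold change was 2.14 at 25 nM (SE 0.62, adjusted p = 0.0185) and 2.24 at 1 µM (SE 0.62, adjusted p = 0.00563). NM_011934 was estimated at 87.5 and 62.0 counts in DMSO, 51.7 and 61.2 counts at 25 nM, and 38.3 and 70.1 counts at 1 µM, and was not called at either dose. The share of NM_001159500 in the RPKM of the gene was 8.36% in DMSO, 33.5% at 25 nM and 37.1% at 1 µM, and ranged up to 50.9% in 1 dish. The calls were not firm at these low counts. By the quasi-likelihood test the adjusted p was 0.198 at 25 nM and 0.0965 at 1 µM, and by DESeq2 0.318 and 0.123. At 25 nM the call was lost without any 1 of the 4 dishes compared (adjusted p from 0.133 to 0.260), and at 1 µM without the DMSO dish of replicate 1 (adjusted p = 0.144) or the RA dish of replicate 1 (adjusted p = 0.152).

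The short Pou5f1 transcript NM_001252452 starts 2775 bases inside the gene, and was called higher at 1 µM by 1.20 on the log2 scale (SE 0.37, adjusted p = 0.0278). Its values were 3.54 and 2.21 RPKM in DMSO, 4.86 and 3.63 RPKM at 25 nM, and 8.42 and 4.93 RPKM at 1 µM. Both dishes at 1 µM were above both DMSO dishes. The full-length transcript NM_013633 held 99.3% of the gene's RPKM in DMSO, 99.1% at 25 nM and 98.5% at 1 µM. Adjusted p was 0.178 by the quasi-likelihood test and 0.0370 by DESeq2, and the call was lost without the DMSO dish of replicate 2 (adjusted p = 0.386) or the RA dish of replicate 1 (adjusted p = 0.377). The antisense gene Gm19553 overlaps this 3′ part of Pou5f1, and its part in the result was not tested.

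**Figure D3:**
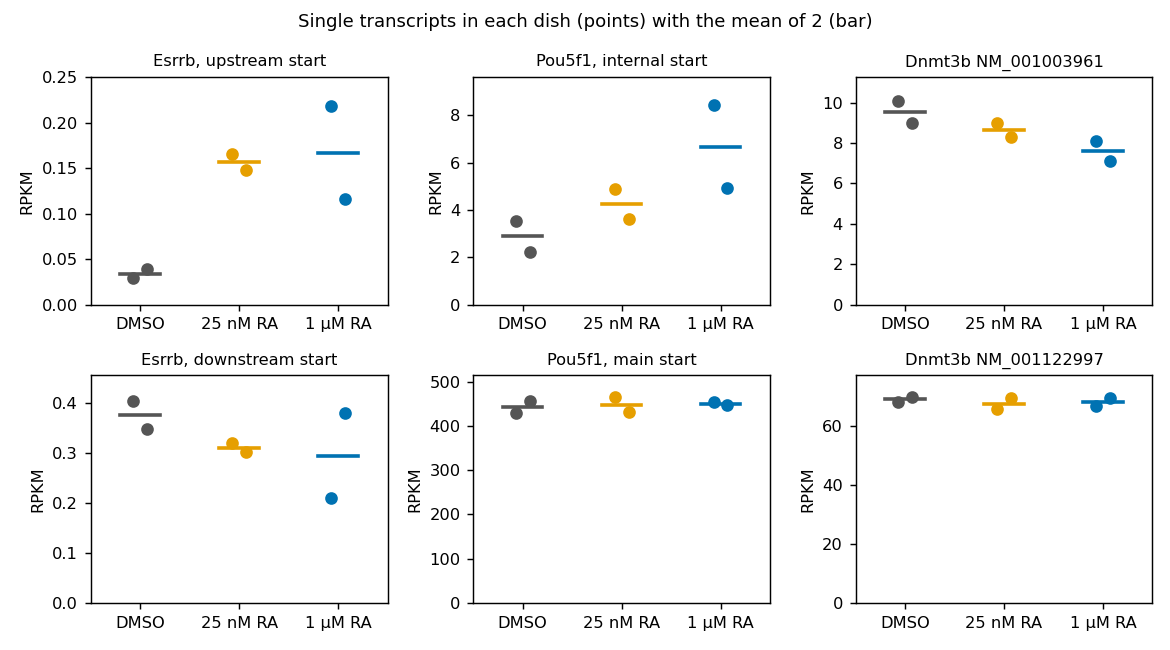
RPKM of single transcripts of Esrrb, Pou5f1 and Dnmt3b in each dish, with a bar at the mean of 2 dishes and all axes starting at 0. The Esrrb transcript of the upstream start is at 0.0294 and 0.0386 RPKM in DMSO and between 0.116 and 0.218 RPKM in the RA-treated dishes, while the main Pou5f1 transcript lies between 429 and 466 RPKM.

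Dnmt3b had 9 transcripts, which differ by a few coding exons, and the alternative coding pieces are shown because they set the form of the enzyme. They are taken from GENCODE transcripts matched to the RefSeq transcripts (GRCm38, chromosome 2, plus strand), 5′ to 3′ as spliced, with the alternative piece in capitals and the neighbouring exon bases in lower case. The 60-base exon is chr2:153670849-153670908. The exon pair of 70 and 119 bases is chr2:153683608-153683677 and chr2:153684359-153684477 and encodes part of the methyltransferase domain, and forms that lack it are known to be catalytically inactive. The 3 added bases, chr2:153675726-153675728, come from an earlier splice acceptor:
60-base exon: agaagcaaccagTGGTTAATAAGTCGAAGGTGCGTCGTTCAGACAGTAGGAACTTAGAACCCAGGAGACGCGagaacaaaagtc
exon pair: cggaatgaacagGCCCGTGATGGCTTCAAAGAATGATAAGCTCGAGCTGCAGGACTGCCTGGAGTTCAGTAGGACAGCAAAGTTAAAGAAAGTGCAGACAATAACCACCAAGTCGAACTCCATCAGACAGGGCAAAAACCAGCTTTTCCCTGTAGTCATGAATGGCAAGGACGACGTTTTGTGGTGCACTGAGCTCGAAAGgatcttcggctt
3 added bases: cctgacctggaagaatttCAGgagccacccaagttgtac
NM_001122997, the 1 transcript with the 3 added bases, was the main form and held 50.3% ± 0.864 of the gene's RPKM in DMSO, 51.7% ± 2.49 at 25 nM and 52.4% ± 0.0124 at 1 µM (SD, n = 2). Transcripts that carry the catalytic exon pair held 79.6% and 79.0% in DMSO, 79.0% and 81.7% at 25 nM, and 80.0% and 79.8% at 1 µM. Transcripts with the 60-base exon held between 89.5% and 92.1% in the 6 dishes. Neither share separated all RA-treated dishes from the DMSO dishes. At 1 µM alone, both dishes were above both DMSO dishes for the exon pair, by a small margin, and for NM_001122997.

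**Figure D4:**
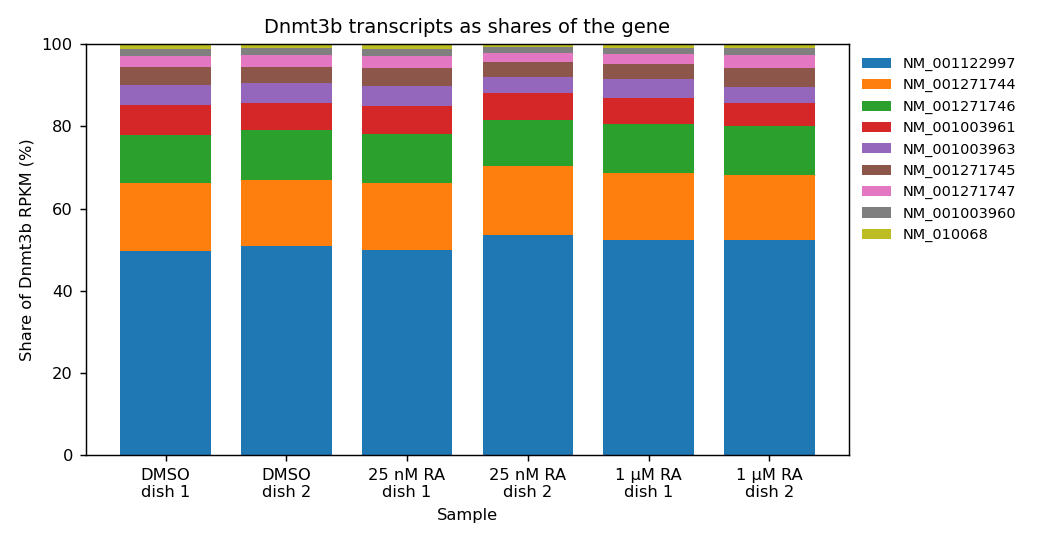
Share of the Dnmt3b RPKM (percent) held by each of its 9 transcripts in each of the 6 dishes. NM_001122997 holds between 49.6% and 53.4%, and the stacks are alike across conditions.

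One Dnmt3b transcript was called. NM_001003961, which carries a noncoding exon of 115 bases (chr2:153650785-153650899) beside the 60-base exon and the exon pair, was at 10.1 and 8.99 RPKM in DMSO, 9.003 and 8.29 RPKM at 25 nM, and 8.08 and 7.12 RPKM at 1 µM. The dishes at 1 µM were below all the others, and the transcript fell by 0.34 on the log2 scale at that dose (SE 0.10, adjusted p = 0.0216). Adjusted p was 0.153 by the quasi-likelihood test and 0.0841 by DESeq2, and the call was lost without the DMSO dish of replicate 1 (adjusted p = 0.343) or the RA dish of replicate 2 (adjusted p = 0.225). The 4 transcripts with the 115-base exon together held 14.7% ± 0.883 of the gene in DMSO, 13.7% ± 1.51 at 25 nM and 12.6% ± 0.968 at 1 µM.

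Calls in lists of related genes were read against the share of all genes called, 8.05% at 25 nM and 19.7% at 1 µM. Some genes stand in several lists, such as Klf5 (naive and KLF) and Cdx1 (NMP and RA response). The counts of such lists are not independent of each other. In a list of 16 other naive genes, 8 had a mean above 1 RPKM in DMSO, against 53.8% of all genes. Of these 16 genes 15 were tested, and 5 were called higher and 1 lower at each dose. DESeq2 called 4 higher and 0 lower at 25 nM, and 4 higher and 1 lower at 1 µM. The list's median log2 fold change was 0.14 at both doses, against -0.00051 and 0.0013 for all genes. Fgf4, an ESC growth factor gene and textbook target of OCT4 with SOX2, was at 4.31 ± 0.153 RPKM in DMSO and rose by 1.49 (SE 0.06, adjusted p = 1.57e-118) and 2.05 (SE 0.06, adjusted p = 8.29e-241) on the log2 scale at 25 nM and 1 µM. Eras, an ESC-specific Ras gene, rose by 0.80 and 1.02, and Tbx3, a T-box factor of the LIF pathway, rose by 1.58 and 1.81 from 0.121 ± 0.000640 RPKM. Dppa2, the partner of Dppa4, rose by 0.75 at 25 nM and was lower at 1 µM than at 25 nM by a log2 fold change of -0.61. Klf5 fell by 0.43 and 0.95, the first of which DESeq2 did not call.

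**Figure D5:**
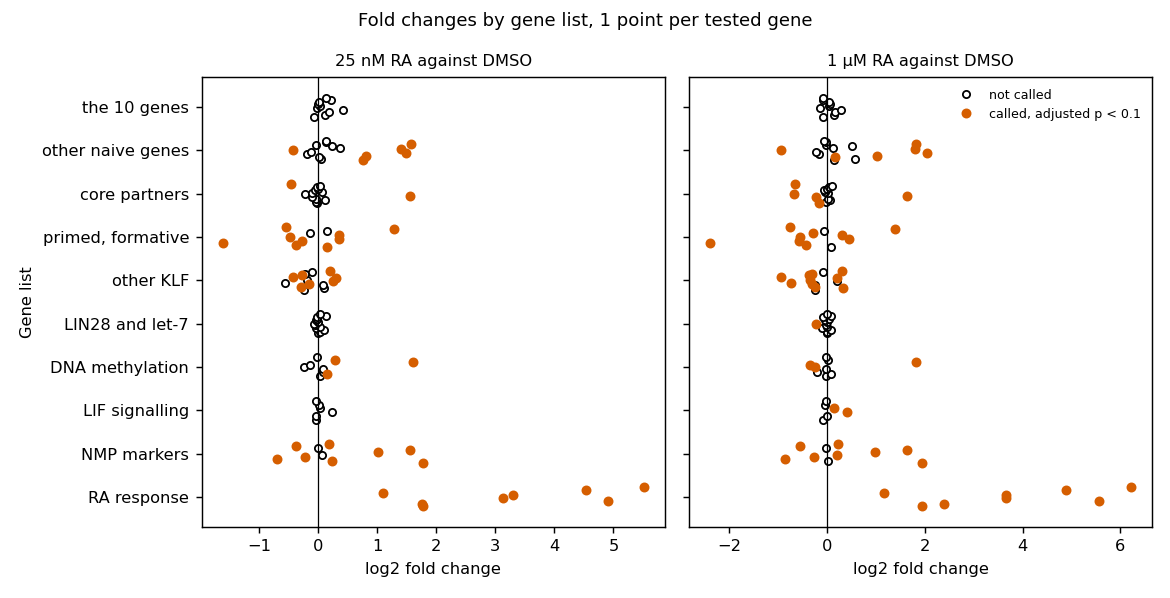
Log2 fold changes at 25 nM and at 1 µM relative to DMSO, with 1 point per tested gene and a row for each gene list. None of the points of the 10 pluripotency genes is filled (called), whereas the naive, primed, KLF, NMP and RA-response lists hold called genes on 1 or both sides of 0.

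Of 14 core partners of the network, 1 was called higher and 1 lower at 25 nM, and 1 higher and 4 lower at 1 µM, with medians of -0.03 and -0.02 on the log2 scale. These are 2 and 5 of 14, against 8.05% and 19.7% of all genes. Sox2, which encodes the partner of OCT4 and is also an NMP marker, rose by 1.56 and 1.64, from 5.20 to 15.4 and 16.3 RPKM. At 1 µM Tcf7l1, a WNT-pathway repressor of pluripotency genes, fell by 0.68 and Sall4 by 0.22. The levels of Pou5f1 and Nanog beside these were as given above, at 1 µM folds of 1.02 and 1.05. In the list of 11 primed and formative genes 4 were called higher and 5 lower at 25 nM, and 3 higher and 6 lower at 1 µM (medians -0.13 and -0.30), so that 9 of the 11 were called at each dose, also by DESeq2. Zic2 fell by 0.54 and 0.77, Otx2 by 0.47 and 0.55 and Lef1, a transcription factor gene of the WNT pathway, by 0.28 and 0.58, while Tcf15 rose by 1.28 and 1.40.

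The pathways of individual members gave the following counts. Of 13 tested genes around LIN28 and let-7, none was called at 25 nM and 1, Igf2bp1, at 1 µM, where it fell by 0.23 (medians of the list -0.01 and -0.01). At 25 nM the quasi-likelihood test and DESeq2 called 0 of the 13 as well, and edgeR's likelihood ratio test gave 1 an unadjusted p under 0.05. Lin28b, the paralogue of Lin28a, was at 23.2 ± 0.510 RPKM in DMSO and 24.1 ± 0.133 RPKM at 1 µM. Of 9 genes of DNA methylation and its removal, 3 were called higher and 0 lower at 25 nM, and 1 higher and 2 lower at 1 µM (medians 0.09 and -0.03), which is 3 of 9 at each dose against 8.05% and 19.7% of all genes. DESeq2 called 3 at 25 nM and 2 at 1 µM. Tet2, which encodes an enzyme that oxidises methylcytosine, rose by 1.60 and 1.82 from 0.734 ± 0.0871 RPKM, Tet1 fell by 0.34 at 1 µM, and at 25 nM Tet3 rose by 0.28 and Dnmt3a, the other de novo methyltransferase gene, by 0.16. Among 14 other KLF genes 3 were called higher and 4 lower at 25 nM and 3 higher and 7 lower at 1 µM (medians -0.17 and -0.26), which is 7 and 10 of 14. DESeq2 called 1 of the 14 at 25 nM (0 higher and 1 lower) and 6 at 1 µM (2 higher and 4 lower), against 7 and 10 by the quasi-likelihood test. Klf6 fell by 0.27 and 0.37, Klf13 fell by 0.16 and 0.31, and Klf10 rose by 0.32 at 1 µM. Of 6 genes of the LIF pathway, which sustains naive ESCs, 0 were called at 25 nM by any of the 3 tools and 0 had an unadjusted p under 0.05. At 1 µM Lif and Lifr rose by 0.40 and 0.14 (medians of the list -0.01 and -0.02), and DESeq2 called neither.

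Receptor genes whose products are known to bind the Pou5f1 promoter were looked up beside it. Nr6a1 (GCNF), a repressor of Pou5f1 in differentiating ESCs, was at 26.6 ± 0.115 RPKM in DMSO, 30.7 ± 0.724 RPKM at 25 nM and 32.0 ± 0.552 RPKM at 1 µM. It rose by 0.20 (SE 0.05, adjusted p = 0.000675) and 0.25 (SE 0.05, adjusted p = 2.35e-06) on the log2 scale. Of the 4 genes of this list 2 were tested, Nr6a1 and Nr5a2 (0.233 ± 0.000650 RPKM in DMSO), and 1 was called higher at each dose (medians 0.29 and 0.18). Nr2f1 and Nr2f2 (the COUP-TF genes) were at 0.0842 RPKM or less in all 6 samples.

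Of 11 NMP markers 10 were tested, all but Cdx4. Of these 5 were called higher and 3 lower at each dose (medians 0.12 and 0.11), and DESeq2 called 6 and 7. Nkx1-2 was higher by 1.02 and 0.98 and Cdx1 by 1.77 and 1.94. The RA-response list had medians of 3.21 and 3.65. Genes of other cell types were read as summed RPKM and as calls. For 9 fibroblast genes, a check for feeder cells, the sum was 6.02 to 6.34 RPKM in DMSO, 5.91 to 6.11 RPKM at 25 nM and 5.32 to 5.50 RPKM at 1 µM. None of the 9 was at 0 in all samples, but Fap was above 0 only in replicate 2 of 1 µM RA, at 0.00841 RPKM. In DMSO 2 were above 1 RPKM, Col1a2 at 2.65 RPKM and Thy1 at 1.74 RPKM. Of 7 tested 3 were called lower at 1 µM (Col1a2, Col1a1 and Postn, list median -0.29). The quasi-likelihood test called 2 of the 7 at 1 µM and DESeq2 called 0. At 25 nM all 3 tools called 0, and 1 gene had an unadjusted p under 0.05 by edgeR's likelihood ratio test. Their part in the results for the 10 genes was not tested. Of 8 germ cell genes, 3 were called higher at 25 nM and 4 at 1 µM (medians 0.41 and 0.67), with Prdm1 higher by 1.32 and 1.83, Kit by 0.58 and 0.78, and Tfap2c by 0.66 and 0.81. Nanos3 was called at 1 µM alone, higher by 1.27 (SE 0.55, adjusted p = 0.0808), and DESeq2 called 3 of the 8 at each dose. Dazl (-0.75 and -0.01), Ddx4 (-0.07 and 0.14), Dppa3 (0.05 and 0.57) and Prdm14 were not called at either dose. The sums of this list were 8.61 to 8.88 RPKM in DMSO and 16.0 to 16.1 RPKM at 1 µM. Within these sums the means of Kit were 3.86 and 6.64 RPKM, of Prdm1 0.919 and 3.27 RPKM, and of Tfap2c 1.89 and 3.33 RPKM. The 5 endoderm genes summed to 36.1 to 37.1 RPKM in DMSO, where 4 were above 1 RPKM, and to 27.1 to 28.4 RPKM at 1 µM. The 5 neural genes summed to 13.7 to 13.8 RPKM in DMSO, where 2 were above 1 RPKM. Which cells of a dish held these transcripts was not tested. Of 5 endoderm genes 3 were called lower at each dose (Sox17, Foxa2 and Gata6), and of 4 tested neural genes 1, Tubb3, was called lower at 1 µM. DESeq2 called 2 of the endoderm genes at each dose and 0 of the neural genes. The 6 genes of the 2-cell-like state summed to between 0.0839 and 0.259 RPKM, and none passed the filter on low counts. The 4 reference genes Actb, Gapdh, Tbp and Hprt were not called at either dose by any of the 3 tools, and 0 of them had an unadjusted p under 0.05.

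The genes whose pattern over the 6 samples was most like Utf1 and Dnmt3b, which had the smallest adjusted p among the 10 genes relative to DMSO, were found by Pearson's r of log2 CPM (counts scaled to library size) among 9022 genes with a mean of at least 10 CPM. For Utf1 they were Itsn2 (r = 0.984), Trib1 (r = 0.971) and Rcn3 (r = 0.966). For Dnmt3b they were Herc3, Lfng and Fignl2 (each r = 0.990). These are the highest of many values over 6 samples that share depth and condition, and are given as a description.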

How the data were processed

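Per-sample tables of 6 mouse NMP samples were used. The authors aligned ribosomal RNA-depleted single-end reads to mm10 (the submitters' processing notes name TopHat2 2.0.13, Bowtie2 2.2.5.0, Partek 6.6 and FastQC 0.11) and apportioned them among RefSeq transcripts by expectation-maximization. The deposited estimated counts are not normalized, and the deposited RPKM values were scaled by the authors for transcript length and library size. Coordinates are 1-based.

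Estimated counts were summed per gene, rounded and tested in edgeR 4.0.16 (R 4.3.3) after TMM normalization and filterByExpr, by the likelihood ratio test, which the study's methods name. The sums, the filter, the normalization and a coefficient per condition were chosen here. Benjamini-Hochberg adjusted p-values, over all genes or transcripts tested, were called under 0.1. Common biological coefficients of variation were 0.0351 for genes and 0.131 for transcripts. RPKM errors are SDs of the 2 dishes. Poisson intervals cover counting error only. No permutation test was made, because 2 dishes against 2 cannot reach a small p. Fits were tested on simulated data. Python 3.11.15, pandas 2.3.3, scipy 1.17.1 and matplotlib 3.10.9 made the tables and figures.

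Tried as alternatives were the quasi-likelihood test, DESeq2 1.42.0 and its size factors, total counts, other filters, fits of only 4 samples, single transcripts, a block for the replicate number, a threshold of 0.05, and each sample left out. Levels were repeated with TMM-scaled libraries and with the longest transcript.

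The 10 genes, the lists and the tests were chosen with earlier results of these data known. Named were all 10 genes, up to 4 called genes per list with the smallest adjusted p, the RA-response, NMP and Pou5f1 promoter receptor genes set beside them, and for 2 of the 10 the 3 genes of most similar pattern. Dppa2, Lin28b, Fap, Thy1 and the uncalled germ cell genes are outside this rule and were chosen after their values were seen. A result that this rule would name among the core partners is not reported here.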

Additional observations from a re-analysis of the deposited data

How the results depend on the processing

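Of 420 refitted values for the 30 fold changes of the 10 genes, 387 kept their direction and their side of the threshold, 5 lost a call, 3 gained one and 25 changed direction. The changes of direction concerned 14 fold changes, none of which was over 0.29 in size on the log2 scale. Fold changes below are on that scale. The number of genes called at 25 nM, 0, was 0 to 1 on leaving out each sample (Klf2 without the DMSO dish of replicate 1, Utf1 without the 25 nM RA dish of replicate 2) and 1 with single transcripts. At 1 µM the 0 became 0 to 1 (Klf2 without the DMSO dish of replicate 1) and 3 with single transcripts. Between doses the 1 gene called became 0 by the quasi-likelihood test, DESeq2, an adjusted p under 0.05 and single transcripts, and 0 to 1 on leaving out samples. The 1 transcript called at 25 nM became 0 by the quasi-likelihood test, DESeq2 and a filter of 1 CPM in 2 samples, which removed it, and 0 to 1 on leaving out samples. The 3 transcripts called at 1 µM became 1 by the quasi-likelihood test and 1 to 4 on leaving out samples. The 7 genes above 1 RPKM in DMSO stayed 7 under the 4 alternatives for levels. On leaving out each sample, directions changed at 25 nM for Pou5f1 (-0.032 to 0.069), Nanog (-0.076 to 0.074) and Klf4 (-0.17 to 0.11). At 1 µM they changed for Pou5f1 (-0.017 to 0.081), Nanog (-0.0045 to 0.14), Klf2 (-0.063 to 0.82), Zfp42 (-0.19 to 0.017) and Utf1 (-0.18 to 0.016). Between doses they changed for Pou5f1 (-0.036 to 0.061), Klf2 (-0.32 to 0.047), Esrrb (-0.11 to 0.072), Dppa4 (-0.039 to 0.091), Lin28a (-0.0094 to 0.0050), Dnmt3b (-0.031 to 0.0059) and NM_001159500 (-0.43 to 0.50). Total counts gave -0.00091 for Pou5f1 between doses, and DESeq2 and its size factors gave 0.00084 and 0.00084 for Lin28a. For changes of call where no dish is named the cause was not tested. With the replicate block the calls were 0, 0 and 1 genes, and 1 and 4 transcripts in place of 1 and 3. Same-numbered dishes had correlations of deviations of -0.04, 0.05 and -0.06 over 15143 genes, so no pairing was seen over genes as a whole. These values cannot exclude it for single genes or transcripts. In RPKM, replicate 1 was above replicate 2 in each condition for NM_001252452 and NM_001003961, but not for NM_001159500. Depth limits Klf2, Klf4 and Esrrb, whose counts were between 36 and 94 per sample. Values without 1 dish assume that the lone dish left in its condition varies like the others.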
